A study of Mus musculus with 2 samples.

Results

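The 10 genes described here encode the NF-kB transcription factor subunits (Nfkb1, Nfkb2, Rela, Rel and Relb) and 5 proteins of the IkB family that bind them (Nfkbia, Nfkbib, Nfkbie, Nfkbiz and Nfkbid). They were taken by symbol from the transcript identifiers, and all 10 were found among 55536 genes, of which 12952 had a mean of 1 TPM or more. TPM is a level divided by transcript length and scaled to the same total in each library. RNA was measured by sequencing after removal of ribosomal RNA, in 2 libraries of a single group. The cells were primary macrophages of the C57BL/6J mouse strain grown from bone marrow, with no genetic change named. They received Lipid A, the lipid end of bacterial endotoxin and a ligand of the receptor TLR4, at 100 ng/ml for 12 hours, were kept without it for 12 hours, and received 100 ng/ml again for 20 minutes. The labels call the RNA nucleoplasmic in one field and nuclear in another, give sex and age as not collected, and record 1 µg of input RNA for replicate 1 and 500 ng for replicate 2. Both libraries are called biological replicates and carry the same donor label. The labels do not tell if they stem from separate mice, so the spread between them may be technical. No unstimulated or singly stimulated library was analysed here, so no change caused by Lipid A can be read from these values.

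NF-kB factors are pairs of subunits that bind kappaB sites in DNA. In resting cells the pairs are held in the cytoplasm by IkB proteins, and signals from TLR4 activate the IkB kinase (IKK), which marks the inhibitors for destruction so that the pairs enter the nucleus. Several of the genes for subunits and inhibitors are themselves NF-kB targets, and Nfkbia in particular is known as a fast negative feedback gene in macrophages. Nuclear RNA holds newly made and incompletely spliced transcripts as well as spliced ones.

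Replicate 1 had 21954179 expected counts, estimated reads per gene, and replicate 2 had 17739520. Mitochondrial genes took 3.52% and 6.37% of these counts. All 8 macrophage marker genes were above 1 TPM, with a median of 124 TPM. Of the markers of other cells, S100a9 had the highest level, at 1.42 TPM, and Ly6g, Elane, Cd3e, Cd3g, Ncr1, Pdgfra, Dcn, Cxcl12, Hba-a1, Cpa3 and Mcpt4 were at 0 counts in both libraries. Summed TPM was 1.96 and 2.66 for the 7 neutrophil markers, 1.30 and 2.11 for the 5 dendritic markers, 0.0600 and 0.420 for the 6 lymphoid markers, and 0.0400 and 0.290 for the 5 stromal markers. Of the erythroid and mast cell markers, Hbb-bs had 0.170 and 0.450 TPM.

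In TPM, Nfkbia RNA was by far the most abundant of the 10, and Nfkb1 and Nfkbiz formed a second level. The other 7 genes lay close together at 7.23 to 18.2 TPM. The 10 genes together held 22906 expected counts in replicate 1, which was 0.104% of the library, and 12932 in replicate 2, which was 0.0729%. In bulk RNA, fewer cells with a transcript and less of it per cell cannot be told apart.

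Among the subunits, Nfkb1 (ENSMUSG00000028163.17) lies at chr3:135584655-135691547 on the minus strand (mm10) and encodes p105, the precursor of p50. It had 41.5 TPM in replicate 1 and 39.7 in replicate 2, a mean of 40.6 ± 1.27 TPM (SD, n = 2), from 3292 and 2098 expected counts. Its level was the highest of the subunits in both libraries and did not overlap with any of the other 4.

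Nfkb2 (ENSMUSG00000025225.15), at chr19:46304320-46312385 on the plus strand, encodes p100, the precursor of p52 and itself an inhibitor of RelB. It had 23.0 and 13.5 TPM, a mean of 18.2 ± 6.71 TPM (SD, n = 2). Rel (ENSMUSG00000020275.9), at chr11:23736847-23770970 on the minus strand, encodes c-Rel, a subunit known for its part in cytokine genes of macrophages and lymphocytes. It had 12.7 and 18.2 TPM, a mean of 15.5 ± 3.90 TPM (SD, n = 2), and was higher in replicate 2, where Nfkb2 was lower. The ranges of Nfkb2 and Rel overlapped, and their order switched between the libraries.

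Relb (ENSMUSG00000002983.17), at chr7:19606217-19629438 on the minus strand, encodes the subunit that pairs with p52 in the non-canonical arm of the pathway. It had 13.4 and 8.53 TPM, a mean of 11.0 ± 3.42 TPM (SD, n = 2). Rela (ENSMUSG00000024927.8), at chr19:5637483-5648130 on the plus strand, encodes p65, the subunit with the strongest activation domain in the canonical p50 and p65 pair. Rela had 11.9 and 8.92 TPM, a mean of 10.4 ± 2.11 TPM (SD, n = 2), which was the lowest mean of the subunits. The levels of Relb and Rela overlapped, and Rela was the lower in replicate 1 and the higher in replicate 2.

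Among the inhibitors, Nfkbia (ENSMUSG00000021025.8), at chr12:55489410-55492647 on the minus strand, encodes IkBα, which is destroyed and made again within an NF-kB response. It had 183 TPM in replicate 1 and 110 in replicate 2, a mean of 146 ± 50.9 TPM (SD, n = 2), from 7234 and 2712 expected counts. In TPM both libraries lay above every value of the other 9 genes, and the mean ranked 288 of all genes, at percentile 97.8 of the 12952. Nfkbia exceeded Rela, the subunit it is best known to hold, by 15.3 times in replicate 1 and 12.4 times in replicate 2.

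Nfkbiz (ENSMUSG00000035356.17), at chr16:55811375-55838899 on the minus strand, encodes IkBζ, a nuclear protein of the family that acts as a cofactor at secondary response genes. It had 40.4 and 38.7 TPM, a mean of 39.5 ± 1.27 TPM (SD, n = 2), and its libraries overlapped with those of Nfkb1. Nfkbiz and Nfkb1 stood at percentiles 89.7 and 90.1 of the 12952 genes.

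Nfkbie (ENSMUSG00000023947.8), at chr17:45555703-45563169 on the plus strand, encodes IkBε, an inhibitor that is resynthesised later than IkBα. It had 15.3 and 10.4 TPM, a mean of 12.8 ± 3.49 TPM (SD, n = 2). Nfkbid (ENSMUSG00000036931.15), at chr7:30421732-30428746 on the plus strand, encodes the nuclear protein IkBNS. Nfkbid had 10.8 and 12.8 TPM, a mean of 11.8 ± 1.44 TPM (SD, n = 2), and its range lay inside that of Nfkbie. Nfkbib (ENSMUSG00000030595.15), at chr7:28758251-28767512 on the minus strand, encodes IkBβ, which is known to be degraded more slowly than IkBα. It had 8.41 and 6.04 TPM, a mean of 7.23 ± 1.68 TPM (SD, n = 2), and both libraries lay below every value of the other members.

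**Figure D1:**
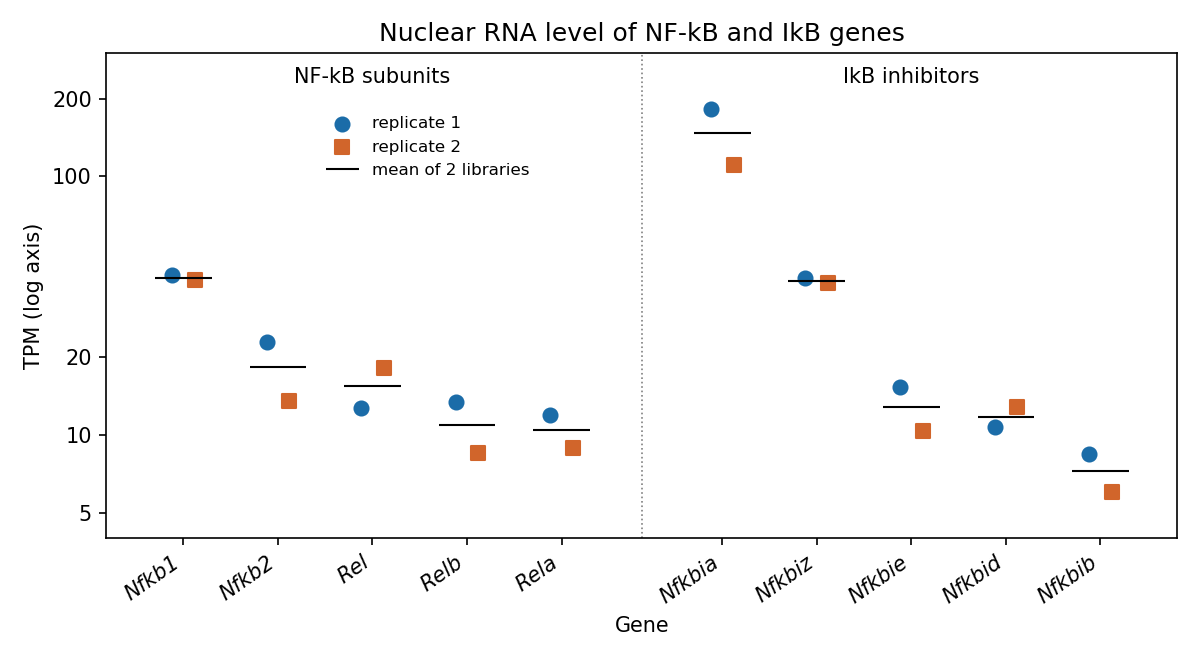
TPM of each gene on a log axis, with replicate 1 as circles, replicate 2 as squares and their mean as a bar, subunits on the left and inhibitors on the right, each ordered by mean. Nfkbia stands at 183 and 110 TPM, Nfkb1 and Nfkbiz at 38.7 to 41.5, and the other genes at 6.04 to 23.0.

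In the order of mean TPM, Nfkbia, Nfkb1, Nfkbiz, Nfkb2, Rel, Nfkbie, Nfkbid, Relb, Rela and Nfkbib, neighbours did not overlap between Nfkbia and Nfkb1, between Nfkbiz and Nfkb2, and between Rela and Nfkbib. All other neighbours overlapped. In TPM Nfkbia was the highest and Nfkbib the lowest in both libraries. On the mean of the libraries they held these places on each of the 4 scales tried. The places between depended on the scale. In counts not divided by length, Rel, whose transcript is 7466 bases long, took place 3 in place of 5, and Nfkb1 went from place 2 to 4.

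Inhibitors and subunits, 5 genes each, did not differ clearly in their typical level. The median was 15.3 TPM for the inhibitors and 13.4 for the subunits in replicate 1, and 12.8 against 13.5 in replicate 2. On the log2(TPM + 1) scale the median inhibitor minus the median subunit was thus 0.18 in replicate 1 and -0.071 in replicate 2, and on mean TPM the difference was -0.25. The sums of TPM gave another picture, because they follow Nfkbia. They rest on division by transcript length, and sums of counts not divided by length were not computed. Inhibitor TPM added up to 257 and 178, against 102 and 88.8 for the subunits, a ratio of 2.51 in replicate 1 and 2.01 in replicate 2. Nfkbia alone made up 70.9% and 62.0% of the inhibitor sum, and without it the ratio was 0.731 and 0.764. No test was made, since genes are not replicates of a role.

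The 2 libraries differed for most of the 10 genes, in the same direction. After the median gene was set to 0, which removed a shift of 0.29 on the log2 scale, 9 of 10 members were lower in replicate 2, where 50.0% of all genes are by construction. The median difference over the members was -0.69 on the log2 scale. Without centring, 8 of 10 were lower, against 27.8% of the 12952 genes. With 1 library on each side there is no test of these differences, and RNA input and replicate cannot be told apart. The higher mitochondrial share of counts in replicate 2 moved with them, and its part in the result was not tested.

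Nfkb2 and Nfkbia lay furthest down. The centred log2 difference was -1.02 for Nfkb2 and -1.01 for Nfkbia, just past 2-fold, which 2 of 10 members and 4.51% of genes passed in the same direction. Both were lower in each of the 11 settings tried and past 2-fold in 5 of them. In CPM, counts scaled to the same library total and not divided by length, the ratio of replicate 2 to replicate 1 was 0.464 for Nfkbia, with an exact 95% interval of 0.444 to 0.485. For Nfkb2 the CPM ratio was 0.496, with an interval of 0.456 to 0.538. These intervals cover counting error only, since reads are not independent molecules.

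Relb, Nfkbie, Nfkbib and Rela followed at -0.88, -0.81, -0.71 and -0.67 on the same centred log2 scale. Nfkb1 and Nfkbiz were closer to the median gene, both at -0.35, and all 6 were lower in each of the 11 settings. Nfkbid, at -0.059, was lower in 8 of 11 settings and higher in the other 3, which were a pseudocount of 5, no filter and no centring. Its CPM ratio of 0.984 had an interval of 0.863 to 1.12, which includes 1.

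Rel was the only member on the other side, at +0.20, and was higher in replicate 2 in all 11 settings. Its CPM were 126 and 152, a ratio of 1.21 with an exact 95% interval of 1.15 to 1.28. By role, 4 of 5 subunits and 5 of 5 inhibitors were below the median gene, with medians of -0.67 and -0.71.

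**Figure D2:**
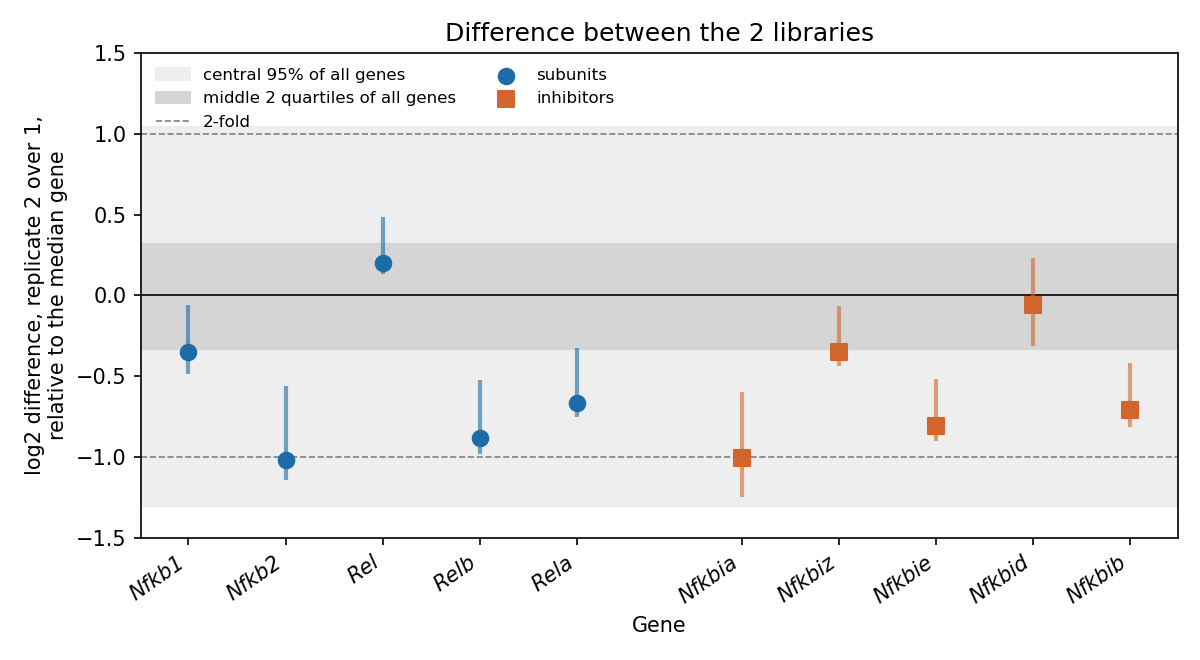
Log2 difference of replicate 2 over replicate 1 in TPM + 1, relative to the median gene, for each member, with vertical lines for the range over the 11 settings and grey bands for the middle 2 quartiles and the central 95% of the 12952 genes. Nfkb2 and Nfkbia lie at the 2-fold line (-1.02 and -1.01), Rel alone is above 0 (+0.20), and all members are inside the central 95%.

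The transcript tables divide each gene among its annotated transcripts, 54 for the 10 genes, of which 30 held 5% or more of their gene's TPM in either library and 14 were listed at 0 counts in both. Retained-intron transcripts are those that the annotation lists with intron sequence left in and no protein. Nuclear RNA also holds transcripts not yet fully spliced, whose intron reads may be given to these entries. These sources cannot be told apart here. Rel has 1 annotated transcript and Nfkbib has 3 coding ones, so the type of transcript can vary in the other 8. Over these 8 the protein-coding transcripts took a median of 89.2% of TPM in replicate 1 and 84.8% in replicate 2, against 70.3% and 67.9% over 8220 and 8219 genes with more than 1 type. A second transcript table deposited for the same libraries, called read-derived below, gave a member median of 63.2% on the mean of the libraries. No share over all genes is given for it, so the contrast with other genes covers the first table only. In the first table the range over members was wide, from 40.7% to 96.6% in replicate 1 and from 31.3% to 98.1% in replicate 2.

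Nfkb1 and Nfkbie stood at the low end. In both genes the transcript with the highest TPM was one annotated as retained-intron in both libraries. This was so for 6.41% of genes, and 2 of 8 members. The read-derived transcript table, a separate estimate deposited for the same libraries, put the same transcripts, Nfkb1-204 and Nfkbie-202, in front in both libraries, where 11.3% of genes had such a leading transcript. This measure was chosen after the values of the members were seen.

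In Nfkb1, retained-intron transcripts held 53.9% of TPM in replicate 1 and 52.3% in replicate 2. Nfkb1-204 had 10.6 and 9.39 TPM, and the leading coding transcript, Nfkb1-206, had 9.47 and 6.99 TPM. Nfkb1-204 follows exons of the coding transcripts from the gene's start and then runs 1824 bases into an intron, at chr3:135610590-135612413. Nfkb1-208 and Nfkb1-210 are 96.0% and 92.9% intronic, so that few of their reads could be given to another transcript, and the deposited posterior SD of their counts was at most 0.960. Nfkb1-208 had 367 and 357 expected counts, or 16.7 and 20.1 CPM, and Nfkb1-210 had 201 and 215, or 9.15 and 12.1 CPM. These 2 intronic transcripts were thus higher in replicate 2, by 1.20 and 1.32 times in CPM, while the other 2 retained-intron transcripts were lower, Nfkb1-204 at 45.7 and 34.3 CPM and Nfkb1-202 at 15.5 and 2.71 CPM. Together the retained-intron transcripts of Nfkb1 were lower in replicate 2, at 87.0 and 69.3 CPM, a ratio of 0.796, and so were the coding ones, at 57.7 and 37.2 CPM, a ratio of 0.644. Nfkb1-202 held 11.9% and 2.57% of the gene, and the coding Nfkb1-203 held 17.9% and 15.0%. The nonsense-mediated decay transcript Nfkb1-207 held 5.36% and 15.1%. These were less well separated, with posterior SDs of 41 and 17 counts for Nfkb1-202 and 38 and 26 for Nfkb1-207. The read-derived table gave Nfkb1-202 20.8% and 13.6% of the gene, at 24.1 and 13.4 CPM. It gave Nfkb1-207 0.863% and 0.0321%, and Nfkb1-203 7.64% and 10.9%. The directions of the Nfkb1-207 and Nfkb1-203 shares therefore turned with the table. The coding Nfkb1-201, listed at 0 counts in both libraries in the first table, held 3.51% and 5.07% in the read-derived one.

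In Nfkbie the share of the retained-intron transcript Nfkbie-202 was 50.1% in replicate 1 and 68.7% in replicate 2. It had 7.65 and 7.10 TPM, so its level was close in the 2 libraries, while the coding Nfkbie-201 had 6.78 and 2.28 TPM. The other coding transcript, Nfkbie-203, held 5.53% and 9.32% of the gene. In CPM the coding transcripts were at 23.0 and 8.22, a ratio of 0.357, and the retained-intron transcript at 29.1 and 22.8, a ratio of 0.784. The posterior SDs of Nfkbie-201 were 44.7 and 43.0 counts around 451 and 104. In the read-derived table the contrast was weaker, with a CPM ratio of 0.558 for Nfkbie-201 and 0.790 for Nfkbie-202. Nfkbie-203 held 4.17% and 0% there, so the direction of its share turned with the table. Nfkbie-202 keeps a whole intron of 610 bases, chr17:45558598-45559207 on the plus strand, between the exons that Nfkbie-201 joins. Its ends are shown because they mark what separates the leading Nfkbie transcript from the coding one, with the first and last 2 intron bases in capitals, 60 bases from each end, from the GENCODE M21 transcript sequence (mm10).
Nfkbie-202 intron, 5′ end: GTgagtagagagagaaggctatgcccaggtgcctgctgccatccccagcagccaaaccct
Nfkbie-202 intron, 3′ end: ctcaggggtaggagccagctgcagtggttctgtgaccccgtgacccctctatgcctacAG
Both ends carry the usual GT and AG of a spliced intron.

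**Figure D3:**
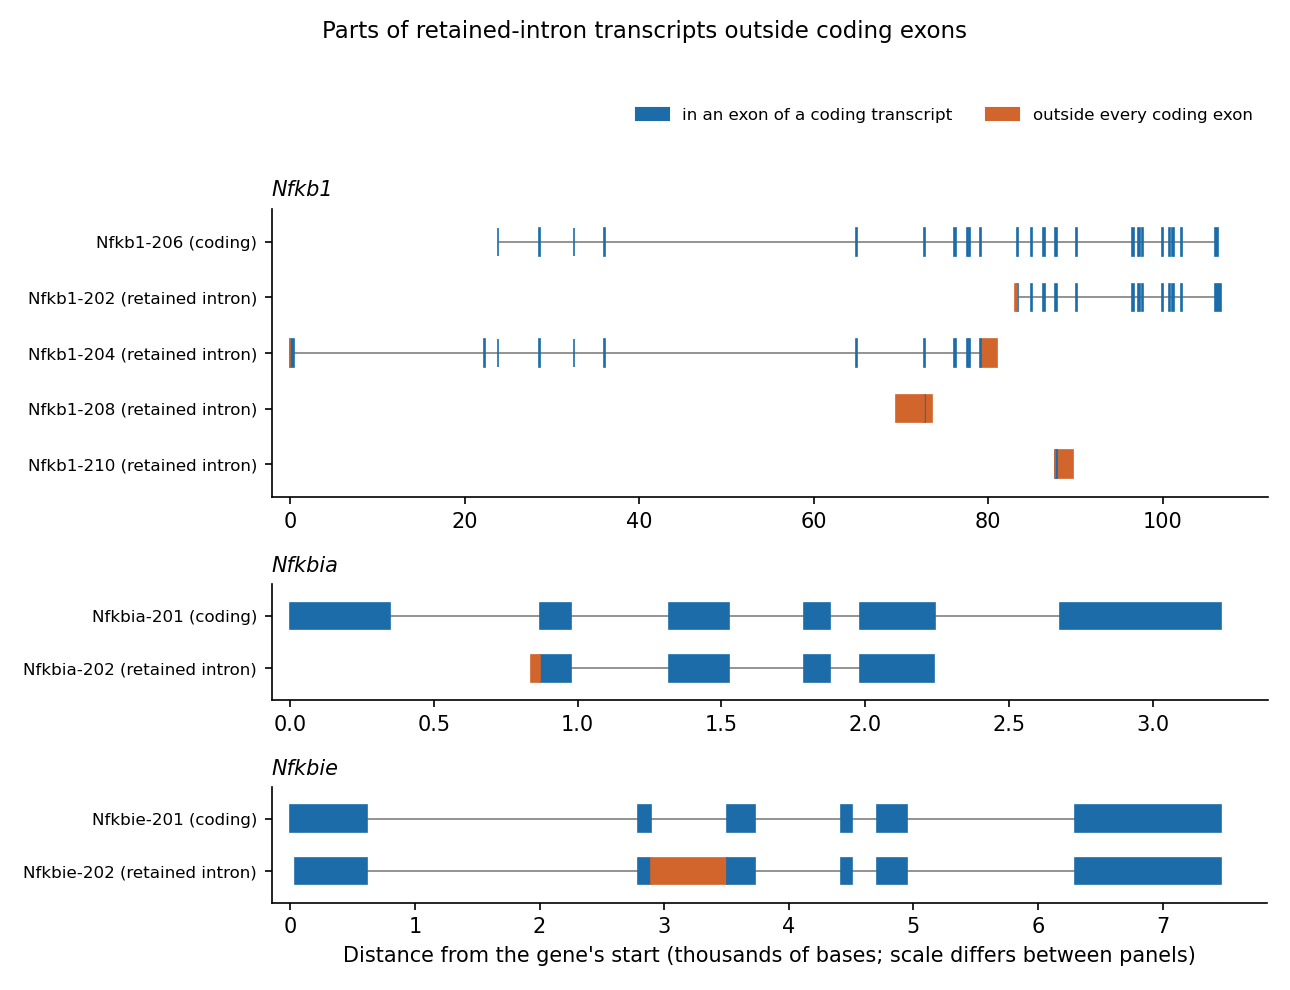
Exons of the leading coding transcript and of the annotated retained-intron transcripts of Nfkb1, Nfkbia and Nfkbie, by distance from the gene's start in units of 1000 bases, with parts inside an exon of any coding transcript in blue and parts outside in orange, the shortest exons drawn at the width of a line. Nfkb1-208 and Nfkb1-210 are almost wholly orange (96.0% and 92.9%), Nfkbie-202 has a single orange intron of 610 bases, and Nfkbia-202 differs from coding exons by 32 bases.

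Relb moved between types. Retained-intron transcripts held 23.2% of its TPM in replicate 1 and 45.4% in replicate 2, where Relb-206 became the leading transcript with 3.87 TPM against 2.98 for the coding Relb-202. In CPM the coding transcripts were at 21.2 and 7.42, a ratio of 0.350, and the retained-intron ones at 12.6 and 13.2, a ratio of 1.05. The single transcripts of Relb were poorly separated, with posterior SDs of 30.4 and 48.7 counts around the 209 and 233 counts of Relb-206. The read-derived table gave it 0.511% and 8.10% of the gene, while the summed retained-intron share there was 33.2% and 46.2%. The leading transcript there was the retained-intron Relb-205 in replicate 1, with 19.1%, and the coding Relb-209 in replicate 2, with 21.6%. Relb-205 was listed at 0 counts in both libraries in the first table. The type of the leading transcript therefore changed in opposite directions in the 2 tables. Of the smaller transcripts, Relb-208 (retained intron) held 5.43% and 0%, Relb-209 (coding) 10.8% and 8.14%, Relb-210 (nonsense-mediated decay) 6.15% and 4.21%, and Relb-204 (processed transcript) 5.54% and 7.39%.

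In Nfkbia the retained-intron transcript Nfkbia-202 held 4.67% of TPM in replicate 1 and 18.4% in replicate 2, with 8.53 and 20.3 TPM against 174 and 90.2 TPM for the coding Nfkbia-201. In this table the coding transcript was the lower in replicate 2 and the retained-intron one the higher, also in CPM, where Nfkbia-202 had 5.68 and 11.3. Only 32 of the 701 bases of Nfkbia-202, at chr12:55491779-55491810 on the minus strand, lie outside the coding exons, and its estimate rests on those and on where its ends fall. The stretch is shown as the part that tells Nfkbia-202 from Nfkbia-201, in the direction of the gene with the intronic bases in capitals and the first 30 bases of the next exon in lower case, from the GENCODE M21 transcript sequence (mm10).
Nfkbia-202: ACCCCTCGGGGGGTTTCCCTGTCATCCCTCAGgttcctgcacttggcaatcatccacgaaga
The read-derived table gave Nfkbia-202 22.6% and 24.7% of the gene, and 32.9 and 21.7 CPM, a ratio of 0.659. The direction of its level in CPM therefore turned with the table, and the share differed far less between the libraries.

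In Nfkbid, Nfkb2 and Rela the retained-intron share was at most 12.1% in the first table. The retained-intron transcript Nfkbid-204, which keeps a whole intron of 114 bases, took 10.6% and 12.1% of Nfkbid TPM, from 10.1 and 9.24 expected counts. Among the coding transcripts of Nfkbid, Nfkbid-203 took 56.4% and 87.9%, and Nfkbid-201 took 33.0% in replicate 1 and was listed at 0 in replicate 2, with posterior SDs of 39.6 and 20.1 counts. The read-derived table divided them otherwise, with Nfkbid-202, listed at 0 counts in both libraries above, in front at 39.8% and 39.7%, and Nfkbid-203 at 28.6% and 25.9%. The retained-intron share of Nfkb2 was 4.48% and 4.89%. Its coding transcripts Nfkb2-202, Nfkb2-206 and Nfkb2-201 took 57.1%, 16.4% and 18.1% in replicate 1. In replicate 2 they took 49.0%, 27.1% and 14.2%. Nfkb2-201 was poorly separated, with posterior SDs of 86.9 and 45.4 counts. Nfkb2-202 also led in the read-derived table, with 59.3% and 41.7%, and Nfkb2-206 held 14.4% and 20.5%. Nfkb2-201 held only 1.48% and 4.08e-07% there. The coding Nfkb2-204, at 2.23% and 0% in the first table, held 13.0% and 18.9% in the read-derived one. Rela-203, the retained-intron transcript of Rela, took 10.1% in replicate 1, from 20.6 expected counts, and was listed at 0 counts in replicate 2. The coding Rela-201 took 89.0% and 96.2% of Rela. In the read-derived table Rela-201 held 48.5% in replicate 1, and the processed transcript Rela-207 led in replicate 2 with 41.2%, so the transcript makeup of Rela differed between the tables.

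In Nfkbiz and Nfkbib a single coding transcript led in both libraries. Nfkbiz-204 took 94.6% and 98.1% of Nfkbiz. Nfkbib-202 took 94.1% and 84.0% of Nfkbib, with the remainder in Nfkbib-201, at 5.90% and 16.0%.

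The retained-intron share was higher in replicate 2 in 5 of the 7 members with such transcripts, Nfkb2, Relb, Nfkbia, Nfkbie and Nfkbid, where it was higher in 59.1% of 6097 genes. In the read-derived table it was higher in 6 of 7, Nfkb1 included, against 64.5% of genes. With 7 genes, these counts are no more than a description. This direction was examined after the shares were seen, and RNA input and mitochondrial share differed between the same 2 libraries.

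**Figure D4:**
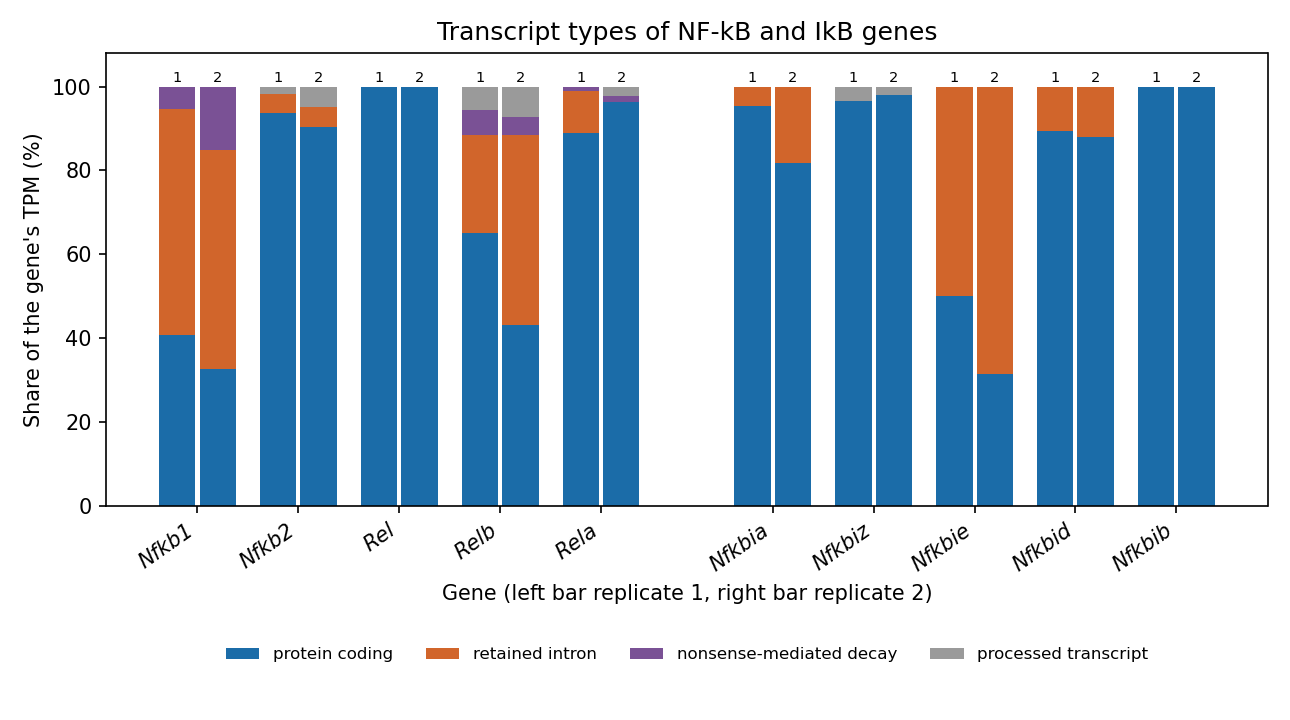
Share of each gene's TPM by annotated transcript type, in percent, with the left bar for replicate 1 and the right bar for replicate 2. Retained-intron transcripts take 53.9% and 52.3% of Nfkb1, 50.1% and 68.7% of Nfkbie and 23.2% and 45.4% of Relb, while Rel and Nfkbib are all coding.

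For Nfkb2 and Nfkbib the gene counts themselves carry a further doubt, as these were the only members whose exons overlap other genes. Nfkb2 shares 531 exon bases with AC114539.1, a long noncoding RNA, and 299 with Psd, and Nfkbib shares 314 with Ccer2 and 42 with Sirt2, all on the opposite strand. No source used here states the strand setting of the counting, so reads in those stretches may not be separated.

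Promoters of the members were read from RefSeq sequence (GRCm38.p6, the assembly that mm10 names), in windows from 250 bases before to 50 bases after a start. The table held 11 windows for 7 of the 10 genes, and Nfkb1, Relb and Nfkbiz were not matched. The kappaB consensus, searched on both strands, was present in 7 of these 11 windows, against 4.51% of all 32851 windows. By gene it was present in 5 of 7, Nfkb2, Nfkbia, Nfkbid, Nfkbie and Rel, and no share over all genes was computed. Windows of a gene are not always separate. In Nfkb2, chr19:46305445-46305744 and chr19:46305680-46305979 overlap and share a match. The exact form of the Ig kappa enhancer was found in Nfkb2 alone among the members, against 0.155% of windows. A looser form, GGGA followed by any 4 bases and CC, was found in Nfkb2, Nfkbia, Nfkbid, Rel and Rela, and in 20.7% of all windows. The letters TATAAA were found for Nfkbia alone, on the opposite strand in the bases after the start, against 13.6% of windows. These forms overlap with the consensus, and a match describes the letters and not binding.

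The stretches before the start that hold a consensus match and overlap no annotated exon are shown for the 4 genes that have them, in the direction of each gene, with the matches in capitals. They are Nfkbia at chr12:55492648-55492897 (minus strand), Nfkbie at chr17:45555450-45555699 (plus strand), Nfkbid at chr7:30422156-30422405 (plus strand, the second of 3 windows) and Rel at chr11:23770971-23771219 (minus strand).
Nfkbia: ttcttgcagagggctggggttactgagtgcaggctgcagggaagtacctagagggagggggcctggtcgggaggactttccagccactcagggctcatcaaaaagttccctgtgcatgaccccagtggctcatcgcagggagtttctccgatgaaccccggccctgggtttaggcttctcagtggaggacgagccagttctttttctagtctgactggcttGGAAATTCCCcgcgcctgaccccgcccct
Nfkbie: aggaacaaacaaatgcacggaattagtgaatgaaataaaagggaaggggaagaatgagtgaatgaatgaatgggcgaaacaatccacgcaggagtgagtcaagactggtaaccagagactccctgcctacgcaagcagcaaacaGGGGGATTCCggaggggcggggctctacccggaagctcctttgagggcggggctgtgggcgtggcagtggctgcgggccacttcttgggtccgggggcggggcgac
Nfkbid: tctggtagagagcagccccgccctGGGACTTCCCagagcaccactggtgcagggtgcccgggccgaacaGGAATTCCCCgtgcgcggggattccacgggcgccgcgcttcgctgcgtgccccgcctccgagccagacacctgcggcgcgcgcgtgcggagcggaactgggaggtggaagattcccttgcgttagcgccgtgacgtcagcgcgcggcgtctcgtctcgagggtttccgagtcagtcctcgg
Rel: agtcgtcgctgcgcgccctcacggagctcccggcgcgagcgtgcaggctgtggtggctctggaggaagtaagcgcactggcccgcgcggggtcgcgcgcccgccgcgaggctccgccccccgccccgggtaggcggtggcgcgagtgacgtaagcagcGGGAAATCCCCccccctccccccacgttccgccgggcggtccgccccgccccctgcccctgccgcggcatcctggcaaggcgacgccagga
The match lies 29 bases before the start in Nfkbia and 106 in Nfkbie. In Nfkbid the 2 matches begin 226 and 181 bases before the start, and in Rel the 2 that overlap begin at 92 and 91. Among the genes with a match, Nfkbia had the highest level of the family and was lower in replicate 2, while Rel, also with a match, was the member higher in replicate 2.

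Other genes of the pathway, 44 in lists by role, were all at 1 TPM or more, with a median of 18.2 TPM. Their differences were centred near that of the median gene. Of the 44, 24 were lower in replicate 2, close to the 50.0% of all genes, with a median centred difference of -0.047, and 2 were past 2-fold lower, which were Traf2 and Nfkbil1, named after their values were seen.

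Upstream, the IKK complex and its activators (12 genes) had a median of 29.1 TPM, with 4 of 12 lower in replicate 2. Tab2, an adaptor of the kinase TAK1, had 35.2 and 53.2 TPM, and Ube2n, a ubiquitin-conjugating enzyme, had 29.7 and 55.2. The non-canonical arm (8 genes) had 6 of 8 lower. Its highest genes were Birc3, a ubiquitin ligase, with 68.4 and 55.3 TPM, and Tnfrsf11a, the receptor RANK, with 28.0 and 35.9.

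The ubiquitin ligase that acts on IkB (5 genes) had 3 of 5 lower, with Rbx1, its RING subunit, at 21.4 and 22.1 TPM and Fbxw11, a substrate receptor, at 13.3 and 15.3. Genes that end the response (11 genes) had 6 of 11 lower. Tnip3, which encodes a partner of A20, had 114 and 121 TPM and Tnfaip3, which encodes A20 itself, 79.4 and 80.3. In each library both were above the 9 members other than Nfkbia, and in replicate 2 Tnip3 was above Nfkbia too. The nuclear cofactors (6 genes) had 3 of 6 lower, with the corepressor Ncor1 at 72.5 and 117 TPM and the acetyltransferase Ep300 at 44.9 and 57.0.

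The 2 further genes of the IkB family were both lower in replicate 2. Bcl3, a nuclear IkB protein that binds p50 and p52, had 13.8 and 9.23 TPM, a centred log2 difference of -0.82, and Nfkbil1 had 6.43 and 3.39 TPM, a difference of -1.05. Bcl3 thus lay within the range of the 7 less abundant members and differed between the libraries by about as much as Nfkbie.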

How the data were processed

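Nuclear total RNA of 2 libraries of 1 group was analysed. The members and the gene lists were chosen with earlier results of these data known, and the leading transcript type, the direction of the retained-intron share, the intronic parts and the exon overlaps were examined after the members' values had been seen.

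The authors used mm10 and GENCODE M21, per the deposited text files. No source used here gives the aligner, quantifiers, versions or strand setting. The gene and transcript tables deposited by the authors hold expected counts, which are estimated and need not be whole, and TPM, which divides them by effective length, per the file headers. The deposited isoform percent values give a transcript's share of its gene's TPM, per the file headers. A further deposited transcript table, called read-derived here, has estimated counts and its own TPM (per the file headers). It was summed to genes for comparison. Its own median gene differed by 1.28 on the log2 scale between the libraries.

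Spike-ins (97 entries, 0.581% and 0.434% of counts) and 26248 entries with numeric identifiers (0.000109% and 0.000303% of counts) stayed out of all totals. The summed level of the erythroid and mast cell markers is not reported here. A count of 0 was taken to allow 3 counts, or 0.137 and 0.169 CPM, and every member was above this at the gene level. Intervals of CPM ratios are exact 95% intervals for 2 counts.

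The difference between libraries is log2 of replicate 2 over replicate 1 after adding a pseudocount of 1 to each TPM, minus the median over genes with a mean of 1 TPM or more. It understates differences of low genes. A chi-square statistic over 14347 genes with 10 or more counts was 91.3 per degree of freedom, so the libraries are not a single library deposited again. Of the steps, only the difference between libraries was tested on simulated data, drawn with counting error and no other spread between libraries. With 1 library a side no test was possible.

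Named were all 10 members, the 2 highest genes of each pathway list, list genes under 1 TPM (none) and transcripts with 5% or more of their gene. Alternatives were pseudocounts of 0.1 and 5, no filter, 10 or more counts in each library, no centring, TMM-scaled counts (edgeR 4.0.16 in R 4.3.3, on rounded expected counts), median-of-ratios counts, TPM without mitochondrial genes and genes under 200 bases, counts not divided by length, shares of expected counts, the read-derived table, leaving out each replicate and, chosen after seeing the data, centring on protein-coding genes alone. Python 3.11.15 was used for the remaining steps (scipy 1.17.1, pandas 2.3.3, numpy 2.4.6) and for figures (matplotlib 3.10.9).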

Additional observations from a re-analysis of the deposited data

How the results depend on the processing

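The median level of the 10 members was 14.1 TPM. It was 17.5 TPM without mitochondrial and short genes, 7.63 TPM in the read-derived table and 55.4 in CPM, and 13.1 to 14.3 TPM when each replicate was left out. The median inhibitor was 0.25 below the median subunit on the log2 scale (-0.25), and -0.72 in CPM. The difference between the median inhibitor and the median subunit ranged from -0.071 to 0.18 when each replicate was left out, so its sign turned with the library. The count of members lower in replicate 2 was 8 or 9 in all 11 settings. The count past 2-fold, 2 as reported, was 0 with a pseudocount of 5, no filter, 10 or more counts in each library, no centring, the read-derived table, and protein-coding genes alone. Nfkb2 and Nfkbia were then at -0.77 and -0.87 (pseudocount of 5), -0.85 and -0.84 (no filter), -0.99 and -0.98 (10 or more counts), -0.73 and -0.72 (no centring), -0.56 and -0.60 (read-derived table), and -0.98 and -0.97 (protein-coding genes alone) on the log2 scale. The median protein-coding share of 8 members was 88.6% on the mean of the libraries, 63.2% in the read-derived table, 95.5% by expected counts, and 84.8% to 89.2% when each replicate was left out. For the tables' disagreement on transcript shares the cause was not tested. No paired analysis was possible because there was 1 group. Depth limits the retained-intron transcripts of Nfkbid and Rela, which rest on 10.1 and 9.24 counts and on 20.6 and 0.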
